A study of Mus musculus with 8 samples.

Results

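The genes described here are 8 markers of resident macrophages that sit along blood vessels: Cd163, Mrc1, Timd4, Folr2, Lyve1, F13a1, Pf4 and Cbr2. They were chosen by gene symbol, with earlier results of these data known, and all 8 were found among the 16136 genes that were listed in the tables of both diets. RNA-seq was carried out on macrophages from the epididymal white adipose tissue (eWAT) of male wild-type C57BL/6J mice, in 8 libraries. Adhesion-related macrophages (ARMs) were sorted from the layer of floating adipocytes, and macrophages of the stromal vascular fraction (SMs, labelled NARM by the submitters) from the pelleted cells. Both were sorted as CD45+ CD11b+ F4/80+ cells. Mice were fed either a normal diet (ND) or, for 8 weeks from 6 weeks of age, a high-fat diet (HFD) with 60% fat. Each of the 4 groups had 2 libraries, and a library was made from a pool of 6 mice (HFD) or 10 mice (ND), so the spread within a group is one between pools.

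Adipose tissue holds macrophages that settle early in life and renew themselves in place, beside macrophages that derive from blood monocytes. The resident cells lie next to vessels, take up plasma proteins, haemoglobin and dying cells, and are recognised by a shared set of scavenger and uptake receptors, of which LYVE1, CD163, MRC1, FOLR2 and TIM4 are the best known. In obesity the monocyte-derived cells, and among them the lipid-associated macrophages, gather around adipocytes. The study measured donor-derived cells in bone marrow chimeras with shielded eWAT. Their share of ARMs and of SMs after 8 weeks of HFD was comparable to that in ND mice. It was lower in ARMs than in SMs under both diets.

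Of the scavenger receptors, Cd163 (chr6:124304636-124330529, plus strand), the receptor for haemoglobin bound to haptoglobin, and Mrc1 (chr2:14229414-14332023, plus strand), the mannose receptor CD206, are large genes with 17 and 30 exons. Timd4 (chr11:46810786-46844333, plus strand) encodes TIM4, a receptor for phosphatidylserine on dying cells. Folr2 (chr7:101839988-101857190, minus strand) encodes folate receptor beta, and Lyve1 (chr7:110850607-110862953, minus strand) a receptor for hyaluronan that lymphatic endothelium also carries. F13a1 (chr13:36867178-37050244, minus strand) encodes the A subunit of coagulation factor XIII, a transglutaminase, and Pf4 (chr5:90772435-90773383, plus strand) the chemokine platelet factor 4. Both of these are also products of platelets and megakaryocytes. Cbr2 (chr11:120729485-120732025, minus strand) encodes a carbonyl reductase. The coordinates are those of RefSeq on GRCm38.p6, the assembly that the submitters' build mm10 stands for.

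The 250 bases before the start given by the RefSeq promoter set are shown for the 4 genes that passed the test in HFD mice and have a sequence in that set, and for Pf4, the gene with the smallest change there. They are read 5′ to 3′ on the strand of the gene. Folr2 and F13a1 had 2 annotated starts each, of which the outer one is shown. For Cd163 and Cbr2 the start used lies 15 and 4 bases inside the outer end of the gene given above. Capitals mark 2 hexamers, found on either strand. One is GGAAGT, a core that PU.1 and other ETS factors bind, and the other is TGCTGA, part of a MAF site. Both strands were searched, and no match of one overlapped a match of the other.
Cbr2 (chr11:120732022-120732271, minus strand): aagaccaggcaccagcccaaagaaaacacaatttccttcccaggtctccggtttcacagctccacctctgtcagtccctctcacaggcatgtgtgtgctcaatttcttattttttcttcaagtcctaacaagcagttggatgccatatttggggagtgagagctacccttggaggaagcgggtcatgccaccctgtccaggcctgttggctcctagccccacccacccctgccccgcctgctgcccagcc
Cd163 (chr6:124304401-124304650, plus strand): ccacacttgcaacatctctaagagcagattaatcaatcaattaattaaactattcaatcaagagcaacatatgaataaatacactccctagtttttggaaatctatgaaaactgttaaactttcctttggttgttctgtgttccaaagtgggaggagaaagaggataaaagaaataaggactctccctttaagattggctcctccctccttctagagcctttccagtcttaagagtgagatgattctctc
F13a1 (chr13:37050245-37050494, minus strand): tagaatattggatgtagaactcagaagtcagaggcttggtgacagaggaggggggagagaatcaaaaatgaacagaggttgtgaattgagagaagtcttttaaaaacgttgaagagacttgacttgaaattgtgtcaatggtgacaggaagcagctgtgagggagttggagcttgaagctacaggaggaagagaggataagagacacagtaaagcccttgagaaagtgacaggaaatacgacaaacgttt
Folr2 (chr7:101857191-101857440, minus strand): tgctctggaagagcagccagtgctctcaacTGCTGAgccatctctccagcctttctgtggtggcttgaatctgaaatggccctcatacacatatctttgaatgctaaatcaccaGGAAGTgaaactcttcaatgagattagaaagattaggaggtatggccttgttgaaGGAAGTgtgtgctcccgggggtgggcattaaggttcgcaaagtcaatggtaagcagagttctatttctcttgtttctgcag
Pf4 (chr5:90772185-90772434, plus strand): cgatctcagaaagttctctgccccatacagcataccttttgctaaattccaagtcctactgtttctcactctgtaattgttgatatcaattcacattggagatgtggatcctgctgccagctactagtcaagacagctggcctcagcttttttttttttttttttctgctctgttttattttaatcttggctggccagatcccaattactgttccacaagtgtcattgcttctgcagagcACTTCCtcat

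Across the 9 starts of the 7 members with a sequence, the first hexamer was found before 5 starts, of Folr2, F13a1, Mrc1, Pf4 and Timd4. It was found in 19.8% of all 32536 such windows. The second hexamer was found before 3 starts, 2 of Folr2 and 1 of Timd4, and in 16.1% of all windows. A hexamer of GATA factors, AGATAA, was found before none of the 9 and in 9.97% of all windows. Cbr2 and Cd163 had none of the 3 in this window. Pf4 had 1 match, which began 10 bases before its start, and the inner start of F13a1 had 1 that began 35 bases before it.

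All 8 genes were strongly expressed in every group. They were supported by between 1413 counts (Timd4 in an HFD ARM library) and 109800 counts (F13a1 in an ND SM library). By mean FPKM, a read count scaled for gene length and library size, 7 of them ranked between 24 and 204 among all genes in each group, and Timd4 ranked between 520 and 1181. In ND ARMs the order ran from F13a1 (1635 ± 166 FPKM, mean ± SD, n = 2) through Folr2, Cbr2, Pf4, Mrc1, Lyve1 and Cd163 down to Timd4 (136 ± 12.8 FPKM). The libraries of Folr2 and Cbr2, and those of Cbr2 and Pf4, overlapped in this order. In HFD ARMs the order was Cbr2 (1018 ± 46.2 FPKM), Folr2, Pf4, F13a1, Mrc1, Lyve1, Cd163 and Timd4 (60.5 ± 9.95 FPKM), and Cbr2 overlapped Folr2, Pf4 overlapped F13a1 and Lyve1 overlapped Cd163. F13a1, first in ND ARMs, came after Cbr2, Folr2 and Pf4 in HFD ARMs. Together the 8 genes made up 1.73% ± 0.0790 of the TPM (a length-scaled share of all transcripts) in ND SMs and 1.55% ± 0.108 in ND ARMs, against 1.36% ± 0.0197 in SMs and 1.10% ± 0.0648 in ARMs of the HFD mice. The level of each member in each library is plotted by group.

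**Figure D1:**
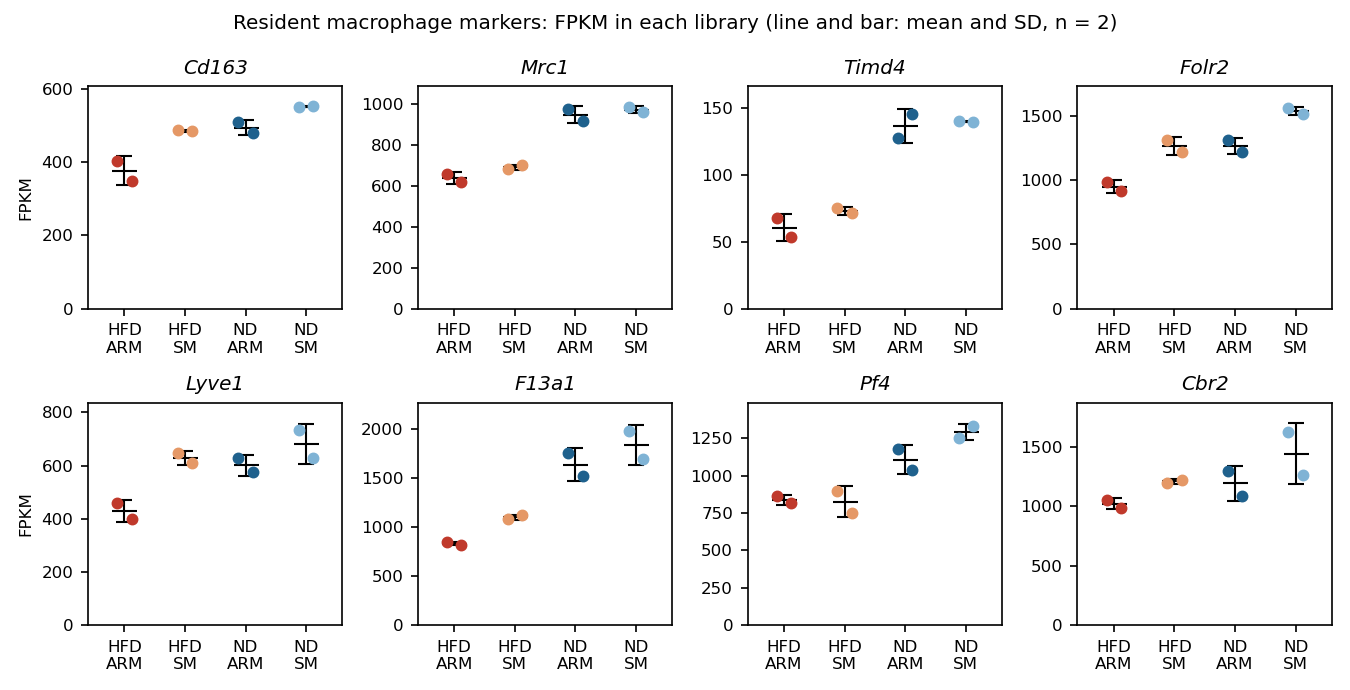
FPKM (vertical axis, from 0) of the 8 members in the 8 libraries, 1 panel per gene. Points are libraries, and the black lines and bars are the mean and SD of 2 libraries. In HFD mice both ARM libraries lie below both SM libraries in every panel but Pf4, and the ND libraries of F13a1, Timd4, Mrc1 and Pf4 lie above all HFD libraries.

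The main contrast of the study sets ARMs against SMs. In HFD mice 5 of the 8 members were lower in ARMs: Lyve1, Folr2, F13a1, Cd163 and Cbr2. They were lower by 17.7% to 33.0%, at an adjusted p under 0.05 in edgeR, a threshold that 3.02% of the 13337 genes tested passed in that direction. All 8 log2 fold changes were below 0, as were those of 51.5% of the genes tested. None was called at the study's fold change of 1.5, which 0.292% of the genes tested passed in that direction. In CPM, a count scaled to library size, 7 members had both ARM libraries below both SM libraries, against 26.4% of all genes tested. Libraries are mixtures, so fewer cells of a type and less RNA per cell cannot be told apart in any of these values.

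Of the uptake receptors, Lyve1 differed most. It was at 459 and 399 FPKM in the HFD ARM libraries and at 647 and 609 in the HFD SM libraries. Both ARM libraries were below both SM libraries. The log2 fold change was -0.58 (standard error 0.078, edgeR adjusted p = 0.00134), just inside the fold change of 1.5, which it passed without replicate 1 of the HFD ARMs (-0.69) or without replicate 2 of the HFD SMs (-0.62). Folr2 was at 986 and 912 FPKM in HFD ARMs and at 1314 and 1218 in HFD SMs, again without overlap, and its log2 fold change was -0.44 (standard error 0.069, edgeR adjusted p = 0.00293). Timd4 was at 67.5 and 53.5 FPKM in HFD ARMs and at 75.4 and 71.1 in HFD SMs. The groups did not overlap, but its log2 fold change of -0.33 did not pass the test (standard error 0.097, edgeR adjusted p = 0.0605).

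The 2 scavenger receptors differed from each other in this respect. Cd163 was at 405 and 349 FPKM in HFD ARMs and at 488 and 484 in HFD SMs, with a log2 fold change of -0.39 (standard error 0.077, edgeR adjusted p = 0.0107). Mrc1 was at 658 and 617 FPKM in HFD ARMs and at 682 and 700.2 in HFD SMs, with a log2 fold change of -0.14 (standard error 0.062, edgeR adjusted p = 0.197). Neither gene overlapped between the groups, and only Cd163 of the pair passed the test. The difference between them was not tested.

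Of the secreted proteins, F13a1 was lower in HFD ARMs, and Pf4 differed least of all members. F13a1 was at 844 and 818 FPKM in HFD ARMs and at 1082 and 1118 in HFD SMs, with a log2 fold change of -0.43 (standard error 0.060, edgeR adjusted p = 0.00145). Pf4 was at 862 and 816 FPKM in HFD ARMs and at 899 and 754 in HFD SMs. Its ARM libraries lay between the 2 SM libraries, and its log2 fold change was -0.0056 (standard error 0.084, edgeR adjusted p = 0.982), with a sign that turned under several alternatives. Cbr2 was at 1051 and 986 FPKM in HFD ARMs and at 1194 and 1221 in HFD SMs. It did not overlap between the groups, and its log2 fold change of -0.28 passed the test by the smallest margin of the 5 (standard error 0.062, edgeR adjusted p = 0.0186). Cbr2 did not pass in 5 of 13 other settings, at an adjusted p of up to 0.191 (limma without a filter), nor without either of the HFD ARM libraries. In the HFD ARMs, replicate 2 was below replicate 1 for all 8 genes, and the share of all genes with that order was not computed. Over all genes these 2 libraries did not stand apart. The chi-square between them averaged 4.22, against 5.94 to 10.1 between those of the other groups. Without replicate 2 of the HFD ARMs, only Lyve1 passed the test (log2 fold change -0.46, edgeR adjusted p = 0.0453), and the other 4 kept their direction.

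In ND mice the same comparison gave values nearer to 0 for every member but Pf4. All 8 log2 fold changes were below 0, from -0.28 for Folr2 to -0.035 for Mrc1, as were those of 53.5% of all 12441 genes tested, and none passed an adjusted p under 0.05 in edgeR, a threshold that 0.458% of the genes tested passed in that direction. At an unadjusted p under 0.05 there were 3 (Folr2, Cbr2 and Pf4), where 4.75% of the genes tested were lower. DESeq2 and limma also gave none past an adjusted p under 0.05, but these 3 passed in edgeR with the replicate number as a block. In CPM, 4 members (Cd163, Folr2, Pf4 and Timd4) had both ARM libraries below both SM libraries, against 22.8% of all genes tested.

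Folr2 was the clearest of them. It was at 1309 and 1221 FPKM in the ND ARM libraries and at 1561 and 1515 in the ND SM libraries, with no overlap, a log2 fold change of -0.28 (standard error 0.098) and an edgeR adjusted p of 0.135. Cbr2 was at 1298 and 1088 FPKM in ND ARMs and at 1622 and 1260.3 in ND SMs, where the higher ARM library exceeded the lower SM library. Pf4 was at 1177 and 1039.5 FPKM in ND ARMs and at 1255 and 1333 in ND SMs, a log2 fold change of -0.23 (standard error 0.099, edgeR adjusted p = 0.264). Unlike in HFD mice, the Pf4 libraries did not overlap.

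Lyve1, which had differed most in HFD mice, was at 630.1 and 574 FPKM in ND ARMs and at 735 and 628 in ND SMs. Its groups overlapped by a narrow margin, and its log2 fold change was -0.18 (standard error 0.11, edgeR adjusted p = 0.518). F13a1 was at 1753 and 1518 FPKM in ND ARMs and at 1982 and 1695 in ND SMs, a log2 fold change of -0.17 (standard error 0.12) with overlap. Cd163 was at 509 and 481 FPKM in ND ARMs and at 552 and 553 in ND SMs, a log2 fold change of -0.16 (standard error 0.099) without overlap. Neither passed the test.

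Mrc1 and Timd4 were closest to equal in FPKM. Mrc1 was at 977 and 919 FPKM in ND ARMs and at 984 and 962 in ND SMs. Timd4 was at 127 and 146 FPKM in ND ARMs and at 140.2 and 139 in ND SMs, where the ARM libraries lay on either side of the SM libraries. In CPM, which is not scaled for length, Timd4 was at 193 and 202 in ND ARMs and at 216 and 219 in ND SMs, and the groups did not overlap. The log2 fold changes of both diets are set side by side for each gene.

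**Figure D2:**
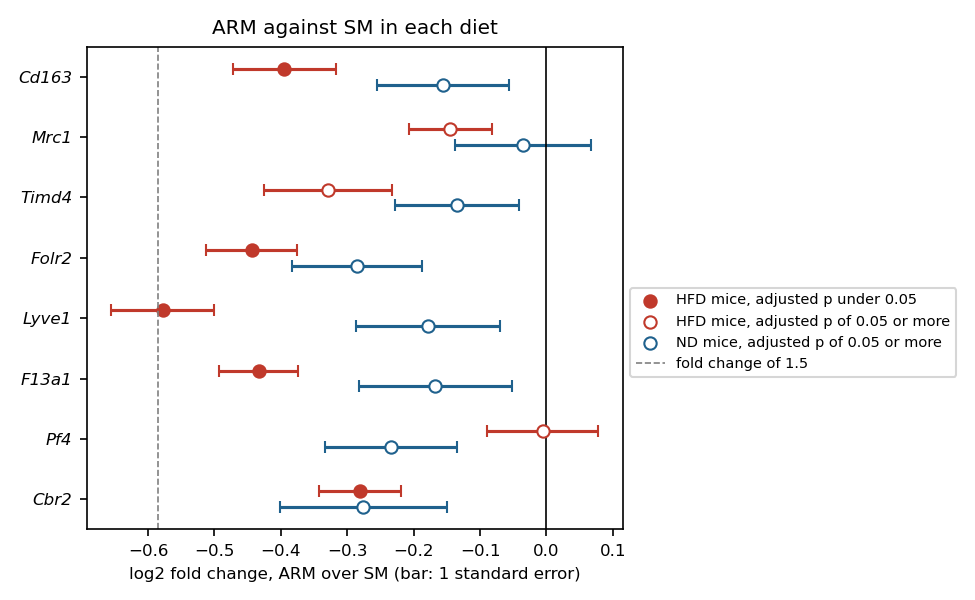
Log2 fold change of ARMs over SMs (horizontal axis) of each member in HFD mice (red) and ND mice (blue), with bars of 1 standard error from the edgeR fit of 4 libraries. Filled points have an adjusted p under 0.05, and the dashed line marks a fold change of 1.5. All 16 values lie below 0, the 5 filled points are all of HFD mice, and Pf4 is the gene with the smaller size of change in HFD mice.

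Whether the ARM to SM difference itself depended on the diet was tested with the 8 libraries fitted together. No member passed an adjusted p under 0.05 for this difference, except Lyve1 when the replicate number was added as a block (edgeR adjusted p = 0.0393). Without the block, 0.165% of the 13358 genes tested passed in either direction, and Lyve1 came nearest, at a log2 difference of -0.42 (HFD less ND, standard error 0.14, unadjusted p = 0.0106, edgeR adjusted p = 0.390). An unadjusted p under 0.05 was reached by 7.61% of all genes and by Lyve1 alone among the members. Cd163 and F13a1 were at -0.26 and -0.28, Timd4 at -0.21, Folr2 at -0.18, Mrc1 at -0.13 and Cbr2 at -0.023. Pf4 was the one member above 0, at 0.21 (standard error 0.14). The larger number of members past the test in HFD mice is therefore not shown to be a difference between diets. Taken over both diets in the same fit, a comparison added after the data were seen, 6 of the 8 were lower in ARMs at an edgeR adjusted p under 0.05 (all but Mrc1 and Pf4), where 3.29% of all genes were, with log2 fold changes from -0.38 for Lyve1 to -0.23 for Timd4. Leaving out any of the 8 libraries left 3 to 5 of them, with 3 without replicate 2 of the HFD ARMs. Folr2, Lyve1 and F13a1 passed in all 8 cases.

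The levels in HFD mice were set beside those in ND mice without a test, because each diet has its own table and diet and table cannot be told apart. The tables were not alike: the gene length implied by the counts and FPKM was larger in the HFD table, by a median ratio of 1.06 over genes with an FPKM of 5 or more, and by 1.28 for Pf4, 1.14 for Folr2 and 1.13 for Cbr2, against 0.929 for Timd4. The cause was not tested. Of the members, Timd4 and F13a1 had the lowest ratios of HFD to ND levels. In ARMs, Timd4 was at a log2 ratio of -1.17 (HFD over ND) in FPKM and -1.21 in CPM, and F13a1 at -0.98 and -0.91. In SMs, Timd4 was at -0.93 and -0.998, and F13a1 at -0.74 and -0.63. All libraries of the HFD groups were below all libraries of the ND groups for both genes and both scales, in either cell type.

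Mrc1 was intermediate, at a log2 ratio of -0.57 in FPKM and -0.52 in CPM in ARMs and at -0.49 and -0.39 in SMs. Lyve1 was at -0.49 and -0.40 in ARMs, and in SMs at -0.12 in FPKM and 0.018 in CPM, where the diets overlapped. Cd163 was at -0.39 and -0.33 in ARMs and at -0.18 and -0.071 in SMs. For Pf4, Cbr2 and Folr2 the value depended on the scale. Pf4 went from -0.40 in FPKM to -0.036 in CPM in ARMs and from -0.65 to -0.25 in SMs, Cbr2 from -0.23 to -0.056 in ARMs and from -0.26 to -0.033 in SMs, and Folr2 from -0.41 to -0.22 in ARMs and from -0.28 to -0.047 in SMs.

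Both HFD libraries were below both ND libraries for 8 members in ARMs and 7 in SMs in FPKM, but so were 46.0% and 49.5% of the genes tested in both diets. In CPM it was 6 members in ARMs and 5 in SMs, against 37.7% and 35.9% of genes. The median log2 ratio of the members in CPM was -0.36 in ARMs and -0.16 in SMs, against -0.024 and -0.0066 over all genes and -0.25 and -0.18 over 8 core macrophage genes.

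**Figure D3:**
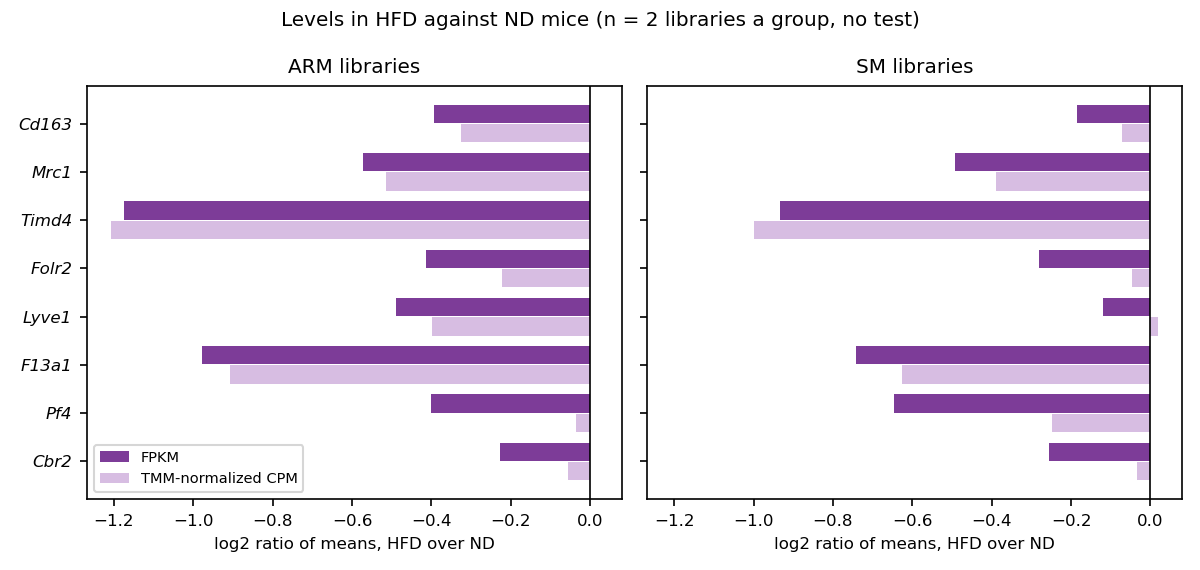
Log2 ratio of mean levels, HFD over ND, for each member in ARMs (left) and SMs (right), in FPKM (dark bars) and in TMM-normalized CPM (light bars), from 2 libraries a group and with no test. Timd4 and F13a1 have the longest bars on both scales in both cell types, and the light bars of Pf4 and Cbr2 in ARMs end near 0.

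Genes that define macrophages were measured in the same fits. The 8 core macrophage genes, among them Ptprc, Itgam and Adgre1, which encode the 3 antigens of the sort, summed to between 15687 and 16459 TPM in HFD ARMs and between 15650.3 and 16582 in HFD SMs, and none of the 8 passed an edgeR adjusted p under 0.05 in either diet. Their median log2 fold change was -0.017 in HFD mice against 0.0021 in ND mice. The 8 resident markers had medians of -0.36 and -0.17, and all genes tested -0.0064 and -0.016. With the libraries scaled to the core macrophage genes, a setting added after the data were seen, 6 members were lower in HFD ARMs, the 5 above and Timd4.

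A list of 20 other genes known from resident macrophages was chosen with earlier results of these data known, so its counts are not independent support. Of these 20, 14 were lower in HFD ARMs at an edgeR adjusted p under 0.05, as were 3.02% of all genes, and none was higher. The other 6 did not pass, and of these Marco, Siglec1 and Igf1 had log2 fold changes above 0, at 0.24, 0.042 and 0.0084. At a fold change over 1.5, 3 of the 14 were called lower, as were 0.292% of all genes. Cd209d, a lectin of the DC-SIGN family, was lowest at a log2 fold change of -0.68 (standard error 0.063), followed by Wfdc17, a small secreted protein, at -0.64 (standard error 0.068) and Ltc4s, the leukotriene C4 synthase, at -0.60 (standard error 0.070). Fcna, a ficolin of the lectin pathway of complement, was at -0.58 (standard error 0.13, edgeR adjusted p = 0.0198). Cd209d and Wfdc17 were named by the study from these libraries, so they are not independent evidence of the direction. The study also measured both genes in its work on phagocytosis, and lists PCR primers for them. It reported both as lower in ARMs of HFD mice but not of ND mice. In ND mice of these libraries 3 of the 20 were lower, Cd209d at -0.52, Cd209f at -0.47 and Ccl24 at -0.35, as were 0.458% of all genes, and none was higher. The ND value of Cd209d thus differs from the study's report, which used pools of 6 mice where these ND libraries used pools of 10. Wfdc17 did not pass in ND mice, at 715 ± 260 FPKM in ARMs and 1007 ± 389 in SMs. The 20 had a median of -0.36 in HFD mice, against -0.18 in ND mice. The 14 genes became 6 without replicate 2 of the HFD ARMs and 9 without replicate 1 of the HFD ARMs, and the 3 of ND mice became 0 without replicate 2 of the ND ARMs or replicate 1 of the ND SMs. With limma without a filter both counts became 0, and over 13 other settings they ran up to 15 in HFD mice and 7 in ND mice.

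A further 16 genes work beside the members, as bridges and receptors for dying cells, in haem and folate handling, in hyaluronan turnover and in transglutamination. They did not move as 1 group. In HFD mice 4 were higher in ARMs and 2 lower at an edgeR adjusted p under 0.05, where 6.53% and 3.02% of all genes were. The median of the 16 was -0.022. In ND mice 3 were higher and none lower, where 4.28% and 0.458% of all genes were, and the median was 0.046. At the fold change of 1.5, Tgm2 was called in HFD mice and Tgm2 and Has2 in ND mice, where 4.46% (HFD) and 3.55% (ND) of all genes were called higher. Tgm2, the tissue transglutaminase, was higher in ARMs of both diets, at a log2 fold change of 1.10 (standard error 0.12) in HFD mice and 0.77 (standard error 0.15) in ND mice, while F13a1, the other transglutaminase here, was lower in HFD ARMs. Has2, which makes the hyaluronan that LYVE1 binds, was higher in ND ARMs at 1.72 (standard error 0.35), from a low level of 0.920 FPKM in ARMs and 0.275 in SMs, and was at -0.29 in HFD mice (edgeR adjusted p = 0.640). In the same ND ARMs 5 of 5 fibroblast genes and 4 of 4 mesothelial genes were higher, at medians of 1.52 and 2.04. In HFD ARMs 4 of 5 and 0 of 4 were. The part of such cells in the level of Has2 was not tested. Mfge8, which bridges phosphatidylserine to the phagocyte, and Axl, a receptor that binds it through GAS6, were higher in HFD ARMs at 0.50 and 0.46 (standard error 0.097 and 0.072) and were at 0.41 and 0.44 in ND mice without passing the test. Gas6 itself was lower in HFD ARMs at -0.30 (standard error 0.062, edgeR adjusted p = 0.0138) and was at -0.12 in ND mice without passing.

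Markers of other cell states were measured in the same fits. Of 10 genes of lipid-associated macrophages, 8 were higher in HFD ARMs and 7 in ND ARMs at an edgeR adjusted p under 0.05, where 6.53% and 4.28% of all genes were, with medians of 0.94 and 0.57. The study marks these macrophages by Cd9 with Trem2 or CD63, and reports ARMs as distinct from them. Trem2 was at 85.1 ± 9.96 FPKM in HFD ARMs and 78.6 ± 2.11 in HFD SMs. In ND mice it was at 84.0 ± 0.205 and 84.0 ± 16.6. In HFD mice Cd9 was at 0.83 (edgeR adjusted p = 0.00615) and Cd63 at 0.052 (edgeR adjusted p = 0.754). Of 5 genes of MHC class II presentation, 4 were higher in HFD ARMs, at a median of 0.34, and none in ND ARMs. Of 8 adipocyte genes, 8 were higher in HFD ARMs and 6 in ND ARMs. Their summed level was 433 to 464 TPM in HFD ARMs against 101 to 106 in HFD SMs, and 369 to 609 in ND ARMs against 180.2 to 231 in ND SMs. Of 6 genes of blood endothelium, 6 were higher in HFD ARMs, at a sum of 68.9 to 71.8 TPM against 21.1 to 30.3 in HFD SMs. None of the 6 passed in ND mice, where the sum was 18.03 to 35.9 TPM in ARMs and 14.3 to 17.1 in SMs. The part of these cells or transcripts in the lower levels of the members was not tested.

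**Figure D4:**
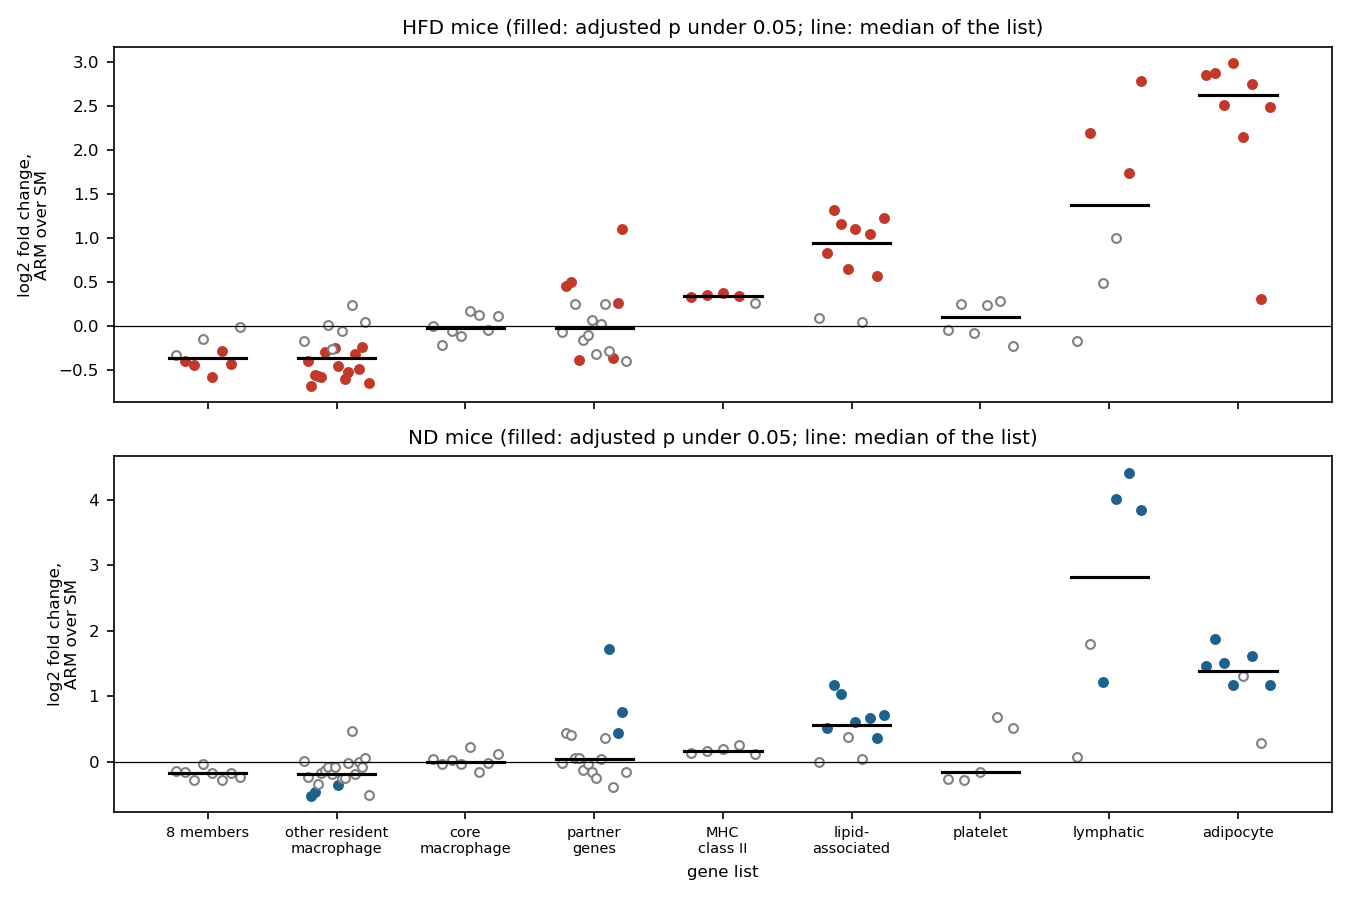
Log2 fold change of ARMs over SMs (vertical axis) of every tested gene in 9 gene lists, in HFD mice (top) and ND mice (bottom). Points are genes, filled where the edgeR adjusted p was under 0.05, and the line is the median of the list. The 8 members and the other resident macrophage genes lie mostly below 0, the core macrophage genes around 0, and the lipid-associated and adipocyte genes above 0.

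Some members are also genes of cells other than macrophages. Lyve1 is also a gene of lymphatic endothelium, and 3 of 6 lymphatic genes were higher in HFD ARMs and 4 in ND ARMs. Their summed level was low, at 20.03 to 24.5 TPM in ARMs and 10.4 to 15.6 in SMs of HFD mice, and at 21.5 to 23.8 and 5.86 to 7.24 in those of ND mice, and 3 of the 6 were listed at 0 in 1 of the ND SM libraries. Prox1, which defines lymphatic endothelium, was at 0.255 ± 0.0354 FPKM in HFD ARMs and in HFD SMs. Pf4 and F13a1 are also products of platelets. The 9 platelet genes summed to 16.7 to 20.2 TPM over all 8 libraries, in which 1 gene was listed at 0 in 1 ND SM library and 8 of the 9 were in the ND table, and none of those tested (6 in HFD mice, 5 in ND mice) passed the test in either diet. The part of lymphatic and platelet transcripts in the levels of Lyve1, Pf4 and F13a1 was not tested.

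The 5 genes outside the members that were nearest to the mean profile of the members over the 8 libraries were found by the root mean square distance of log2 CPM after the mean of each diet was taken out. They were Rxylt1, a glycosyltransferase, at a distance of 0.0291, Etv1, a transcription factor of the ETS family, Adamtsl5, Kifc3, a kinesin, and Stard8, at 0.0332. Among 7994 genes compared, Cd163 was the member nearest to the mean profile (0.0449, rank 21) and Pf4 the farthest (0.136, rank 2873). Genes that are not members lay nearer to it than any member did. The part of depth and preparation in these distances was not tested, and the distance is a description of these 8 libraries.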

How the data were processed

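Total RNA of sorted macrophages was sequenced, and the authors deposited, per diet, a table of genes that gives an estimated count, FPKM and TPM by library. The submitters' processing notes name the build mm10. The aligner and counting program are not given in the sources used here. Estimated counts were not whole for 32.3% to 32.9% of genes in the HFD libraries and 8.55% to 9.36% in the ND libraries. Whether the libraries or their quantification differed was not tested. Library totals ran from 14508824 to 19040133 counts. The chi-square between the 2 libraries of a group averaged 4.22 to 10.1 over genes, more than counting noise. The labels name no separate animals, and the pools are known from the study's legends, so p-values measure the spread between libraries.

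Counts were rounded and fitted for each diet alone with edgeR 4.0.16 (R 4.3.3), by TMM, filterByExpr and quasi-likelihood tests, and p-values were adjusted by Benjamini-Hochberg over all genes tested. A call needed an adjusted p under 0.05 together with a fold change above 1.5. The same test in 1 fit of 8 libraries gave the difference between diets. Alternatives used DESeq2 1.42.0 and limma 3.58.1 on log2(FPKM + 1) and log2(FPKM + 0.1), other normalizations and filters, and each library left out. An exact permutation test cannot pass with 2 libraries against 2. Promoters came from RefSeq (GRCm38.p6), and figures from Python 3.11.15 with matplotlib 3.10.9.

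The members and gene lists were chosen with earlier results of these data known. All 8 members are named. Of the other resident genes and of the partner genes, those called in either diet are named, made up to 4 by the largest change. Cd209f, Ccl24, Marco, Siglec1, Igf1 and Gas6 were added after their values were seen. Genes of like profile were sought at a mean of at least 10 CPM in each diet.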

Additional observations from a re-analysis of the deposited data

How the results depend on the processing

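The 5 members lower in HFD ARMs became 1 (F13a1) with no filter on low counts and 0 with limma on log2(FPKM + 1) without a filter, and 1 to 6 when a library was left out. The causes were not tested. The 14 other resident genes lower in HFD ARMs became 6 with no filter on low counts, 9 in 1 fit of all 8 libraries and 0 with limma on log2(FPKM + 1) without a filter, and 6 to 15 with a library left out. The 3 in ND ARMs became 5 with no filter, 0 with limma in each of its 3 settings and 7 with the replicate block. Cbr2 in HFD mice missed the test in the 5 settings of no filter, 1 fit of all 8 libraries and limma, at an edgeR or limma adjusted p of 0.0514 to 0.191. The count called at a fold change of 1.5 was 0 in every other setting and 0 to 1 with a library left out. Over both diets the 6 members became 3 to 5 with a library left out, and no other alternative was run. Pf4 in HFD mice turned to 0.023 with library totals, 0.019 with upper-quartile factors, 0.0046 with at least 10 counts in every library and 0.027 with limma at either pseudocount and without a filter, and ran from -0.13 to 0.13 with a library left out. The difference between diets of Cbr2 turned to 0.026 with library totals and ran from -0.18 to 0.16 with a library left out. Mrc1 in ND mice ran from -0.075 to 0.00013. The median log2 ratio of HFD to ND in SMs was -0.39 in FPKM and -0.16 in TMM-normalized CPM, where Lyve1 turned to 0.018. Of the 5 genes of like profile, 4 stayed at a minimum of 50 CPM. The replicate numbers are shared by the groups but no source pairs them, and same-numbered libraries deviated together at r = 0.0716 in HFD mice and 0.373 in ND mice, over genes. With the replicate block, 6 members were lower in HFD ARMs, 3 in ND ARMs (Cbr2, Folr2 and Pf4), and 1 (Lyve1, -0.42, edgeR adjusted p = 0.0393) differed between diets. Depth limits none of the members, but 2 libraries a group limit every test.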

Other observations

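Of 5 genes of classical monocytes, 1 was higher in HFD ARMs than in HFD SMs at an edgeR adjusted p under 0.05. Their median log2 fold change was 0.41, with 1 of the 5 below 0. In ND mice the median was -0.39, all 5 were below 0 and none passed the test, and none passed for the difference between diets. Their summed level was 72.7 to 87.7 TPM in ARMs and 64.8 to 72.6 in SMs of HFD mice, and 152 and 166 to 176 in those of ND mice. Of 5 genes of large peritoneal macrophages, a cell that also carries Timd4, 1 was higher in HFD ARMs and none passed in ND mice. The gene was Selp, at 5.10 ± 0.580 FPKM in HFD ARMs and 1.78 ± 0.509 in HFD SMs. The 6 genes of blood endothelium were also higher in HFD ARMs, and the part of endothelial transcripts in Selp was not tested. Gata6, which defines large peritoneal macrophages, was at 0.455 ± 0.0495 FPKM in HFD ARMs and 0.660 ± 0.255 in ND ARMs. Fibroblast genes were higher in ARMs (4 of 5 in HFD mice and 5 of 5 in ND mice), and mesothelial genes in ND mice (4 of 4, none in HFD mice). Of 5 genes of dendritic cells, 1 was lower in HFD ARMs and none passed in ND mice. The gene was Cd209a, at -0.48 (standard error 0.061, edgeR adjusted p = 0.00101), and Cd209d and Cd209f of the resident list were lower there too. Flt3, Clec9a and Xcr1 were low, at 0.425, 0.390 and 0.935 FPKM in HFD ARMs. Of 4 mast cell genes 1 was higher in HFD ARMs, where 6.53% of all genes were, and 2 were below 0. It was Kit, at a low level of 0.630 FPKM in HFD ARMs and 0.235 in HFD SMs. All 3 neutrophil genes tested in ND mice were below 0, and 1 was lower in ND ARMs at the threshold, where 0.458% of all genes were. The neutrophil list summed to 21.3 to 64.5 TPM in ND ARMs and 94.9 to 118 in ND SMs. None of the lymphocyte genes tested passed in either diet.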
